A study of Mus musculus with 37 samples.

Results

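The genes of the TGF-beta receptors, the SMAD proteins and their nuclear repressors were described in uterine NK (uNK) cells of the pregnant mouse. The 9 genes were chosen by name, out of 53700 genes counted: *Tgfbr1*, *Tgfbr2*, *Smad2*, *Smad3*, *Smad4*, *Smad7*, *Ski*, *Skil* and *Tgif1*. All 9 had reads in all 37 libraries and passed the filter on low counts in each of the comparisons described here. Live CD45+ NKp46+ cells were sorted from the uterus of C57BL6 mice at gestation day 9.5 to 10.5, and each library is bulk RNA-seq of 1 sorted population. By binding self MHC class I, the inhibitory receptors NKG2A and Ly49C/I educate NK cells, and cells with neither receptor are called uneducated. In WT mice there were 9 libraries of uneducated cells, 9 of NKG2A+ cells that lacked Ly49C/I and 6 of Ly49C/I+ cells that lacked NKG2A. In mice with the genotype NKG2A KO there were 8 uneducated and 5 Ly49C/I+ libraries, and no NKG2A+ library. Cells with both receptors were not collected, no mouse received a treatment, and the labels give no maternal age and do not say whether libraries came from separate mice, so that p-values measure the spread between these libraries.

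TGF-beta is held latent outside the cell until integrins or proteases release it. The active ligand binds the type II receptor, encoded by *Tgfbr2*, which recruits and phosphorylates the type I receptor, encoded by *Tgfbr1*. The type I receptor then phosphorylates SMAD2 and SMAD3, which join the shared partner SMAD4 and enter the nucleus to change transcription. SMAD7 is induced by the pathway and blocks the type I receptor, whereas SKI, its relative SnoN (*Skil*) and TGIF1 repress SMAD-driven transcription in the nucleus. In the uterus and other tissues, TGF-beta is known to favour features of tissue-resident innate lymphocytes, such as the integrins CD49a (*Itga1*) and CD103 (*Itgae*), and to restrain NK cell activity.

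Between 13287163 and 18875033 reads were counted on genes per library (median 17273311). Values are given as CPM, read counts scaled to a common library size with TMM factors. The 8 NK cell markers examined, from *Ncr1* to *Il2rb*, were present in every group, and their summed level was between 15803 and 22925 CPM. Single markers were not steady against uneducated cells (edgeR, adjusted p under 0.05). In NKG2A+ cells 4 rose and 2 fell, in WT Ly49C/I+ cells 1 and 2, and in KO Ly49C/I+ cells 4 and 2. Over all genes tested, 15%, 9.3% and 16.3% passed in these comparisons. *Klrc1*, which encodes NKG2A, was at 495 CPM or more in the NKG2A+ libraries and at 13.9 CPM or less in all others, so the sort for NKG2A matched the labels. *Klra9*, which encodes Ly49I, was at 452 CPM or more in the Ly49C/I+ libraries and at 124 CPM or less in all others. *Klra3*, which encodes Ly49C, went the other way, with a median of 57.8 CPM (24.6 to 81.9) in WT Ly49C/I+ against 138 CPM (65.8 to 214) in WT uneducated libraries and of 96.2 against 150.0 CPM in KO libraries. Reads of the near-identical Ly49 genes may be split among them, so the level of each is uncertain. *Klrc1* was low alike in the KO and WT cells that were sorted as NKG2A-negative, and its transcript is therefore no check of the genotype. Markers of B cells and endothelium summed to at most 3.18 and 4.94 CPM in any library. The 4 libraries with the fewest genes counted (13982 to 14197 genes) were WT uneducated 5, WT NKG2A+ 9, WT Ly49C/I+ 5 and KO Ly49C/I+ 5. They held 8 of the 18 extreme values (the lowest and the highest library of each of the 9 genes), and results are given without them where that changed a call.

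All 9 genes were expressed, at levels that differed by about an order of magnitude once gene length was taken into account. Per kilobase of exon, *Tgif1* had the highest median over 37 libraries (39.9 CPM per kilobase), followed by *Tgfbr2* (33.3), *Smad4* (22.6), *Skil* (18.1) and *Smad7* (13.7). *Ski* (10.9), *Smad3* (10.0) and *Smad2* (9.90 CPM per kilobase) could not be put in order, since *Smad2* exceeded *Smad3* in 19 of 37 libraries and *Smad3* exceeded *Ski* in 18. *Tgif1* and *Tgfbr2* also changed places, with *Tgfbr2* the higher in 8 libraries. Other places were not fixed either: *Tgfbr2* exceeded *Smad4* in 31 of 37 libraries and *Smad4* exceeded *Skil* in 32. *Smad7* exceeded *Skil* in 5 and *Ski* in 31, and *Smad2* exceeded *Smad7* in 9. *Tgfbr1* was the lowest, with a median of 3.84 CPM per kilobase. The receptor pair was thus unequal in every library, and *Tgfbr2* exceeded *Tgfbr1* per kilobase in 37 of 37.

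**Figure D1:**
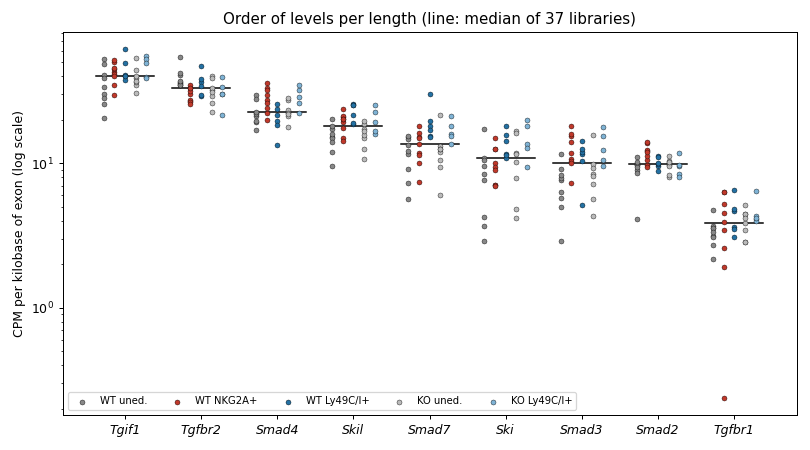
Level of each gene in CPM per kilobase of exon on a log axis, with 1 point per library coloured by group and a line at the median of 37 libraries. *Tgif1* and *Tgfbr2* lie at the top with medians of 39.9 and 33.3, and *Tgfbr1* at the bottom with 3.84; its single low point is WT NKG2A+ library 9.

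The receptor *Tgfbr2* was lower in NKG2A+ than in uneducated WT cells. In WT uneducated libraries its lowest, median and highest levels were 285, 297 and 443 CPM, and in NKG2A+ libraries 211, 246 and 284 CPM. No NKG2A+ library reached the lowest uneducated library, although the nearest pair was close, and with TMM factors from these 18 libraries alone, or with total counts, 1 NKG2A+ library overlapped. Over all genes tested, 2.01% had groups that did not overlap in this comparison. *Tgfbr2* fell by 0.37 on the log2 scale (SE 0.09, adjusted p = 0.00706, edgeR's quasi-likelihood test with Benjamini-Hochberg adjustment), a change whose size exceeded that of 73.8% of genes. The highest uneducated value, in library 1, stood apart from the next (343 CPM), and without that library the fall was 0.30 and still passed the threshold. In bulk RNA, a smaller share of cells that express a gene and less RNA in each cell cannot be told apart.

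In the other groups *Tgfbr2* lay between or beside these levels. WT Ly49C/I+ libraries had a lowest, median and highest level of 237, 289 and 382 CPM, and the difference from uneducated cells was -0.12 on the log2 scale (SE 0.12, adjusted p = 0.582). In NKG2A KO mice, uneducated libraries ran from 185 to 328 CPM (median 258), and the 5 Ly49C/I+ libraries had 247, 178, 245, 275 and 322 CPM. These KO groups overlapped over most of their range, with a difference of -0.03 (approximate 95% interval -0.31 to 0.25). Between the uneducated cells of both genotypes the log2 difference was -0.31 (SE 0.11), lower in KO, with an unadjusted p of 0.0107 and an adjusted p of 0.633 in edgeR, and so did not pass.

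*Tgfbr2* is transcribed from the minus strand of chromosome 9 between positions 116084293 and 116175360 (GRCm38), and its longest coding transcript has 8 exons with 1776 coding bases. Of its stretches of 50 transcript bases, 0.77% also occur in transcripts of other genes, and for the other members this share was at most 0.015%. *Smad3*, the other gene that passed in NKG2A+ cells, lies on the same strand and chromosome, from 63646767 to 63757994. The promoters of this pair are shown because they are the receptor and the SMAD that moved in opposite directions. RefSeq (GRCm38.p6) gave promoters for 5 of the 9 genes, from 250 bases before to 50 after the start site. Those of *Tgfbr2* (chr9:116175314-116175613, minus strand) and *Smad3* (chr9:63757945-63758244, minus strand) are printed with motif matches in capitals.
Tgfbr2: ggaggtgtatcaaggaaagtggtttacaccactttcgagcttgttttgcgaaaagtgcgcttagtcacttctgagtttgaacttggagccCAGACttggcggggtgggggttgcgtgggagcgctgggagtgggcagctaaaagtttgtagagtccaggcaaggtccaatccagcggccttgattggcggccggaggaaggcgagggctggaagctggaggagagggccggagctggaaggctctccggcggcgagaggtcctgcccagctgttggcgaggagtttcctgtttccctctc
Smad3: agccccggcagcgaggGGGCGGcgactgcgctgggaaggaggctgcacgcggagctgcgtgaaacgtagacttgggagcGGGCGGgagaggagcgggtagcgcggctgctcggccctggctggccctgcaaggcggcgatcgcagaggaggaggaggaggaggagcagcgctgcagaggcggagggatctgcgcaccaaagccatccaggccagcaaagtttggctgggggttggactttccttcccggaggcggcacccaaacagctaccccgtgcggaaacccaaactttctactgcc

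In these windows, both strands were searched for CAGAC (the SMAD box), TGANTCA (AP-1), GGGCGG (the GC box) and TGTGGT (RUNX). No overlap between motifs was found in them. The *Tgfbr2* window held 1 SMAD box, which starts 160 bases before the start site and is shared with 49.6% of all 32851 promoters. The *Smad3* window held no SMAD box and 2 GC boxes, 234 and 171 bases before the start site, a motif that 35.7% of promoters hold. Neither held the AP-1 letters (7.81% of promoters) or the RUNX letters (16.8%). The windows were 59.0% and 67.7% GC.

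*Tgfbr1*, the type I receptor, varied widely among NKG2A+ libraries and did not pass in any comparison. Its lowest, median and highest levels were 14.2, 21.8 and 30.9 CPM in WT uneducated libraries, 1.56, 25.5 and 41.5 CPM in NKG2A+ libraries and 20.3, 27.1 and 42.9 CPM in WT Ly49C/I+ libraries. The NKG2A+ range was the widest, and its lowest value, 27 reads in library 9, was the only one of any of the 9 genes under 5 CPM. In KO mice the uneducated libraries had 18.6 to 33.4 CPM (median 26.1) and the Ly49C/I+ libraries 26.8, 25.8, 28.4, 41.8 and 27.2 CPM. The largest of its group differences was 0.41 on the log2 scale, in WT Ly49C/I+ over uneducated cells (SE 0.20, adjusted p = 0.202). In KO Ly49C/I+ over uneducated cells it was 0.24 (adjusted p = 0.395), and 0.088 without KO Ly49C/I+ 7, the library with 41.8 CPM.

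*Smad3* had the largest change of the 9 genes with NKG2A, and was higher in NKG2A+ cells. WT uneducated libraries had 16.1, 42.2 and 63.7 CPM as lowest, median and highest level, and NKG2A+ libraries 40.3, 64.7 and 100.4 CPM. The groups overlapped, with 5 of 9 NKG2A+ libraries above every uneducated library. *Smad3* rose by 0.82 on the log2 scale (SE 0.21, adjusted p = 0.00989), more than 94.4% of genes changed. It and *Tgfbr2* were the 2 of 9 genes that passed in this comparison, where 15% of all genes tested passed, and both passed in all 29 alternative analyses. At an unadjusted p under 0.05 there were 5 of 9, against 28.4% of all genes.

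The Ly49C/I+ differences of *Smad3* pointed the same way and did not pass. WT Ly49C/I+ libraries had 28.4, 65.0 and 79.0 CPM as lowest, median and highest level, which was 0.62 above uneducated cells on the log2 scale (SE 0.25, adjusted p = 0.123). The lowest of them was library 5, and with the low-gene libraries left out of both groups the difference was 0.80 (adjusted p = 0.0325). In KO mice the uneducated libraries ran from 24.0 to 86.8 CPM (median 45.8) and the Ly49C/I+ libraries had 98.7, 58.2, 86.1, 68.2 and 52.7 CPM. That difference was also 0.62 (SE 0.24, adjusted p = 0.0847), and without KO uneducated library 4, the highest of its group, it was 0.80 and passed (adjusted p = 0.0119). Tested against each other, the KO and WT effects differed by -0.01 (approximate 95% interval -0.73 to 0.71).

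*Smad2*, whose product acts beside that of *Smad3*, was the steadiest of the 9 genes, with a coefficient of variation of 17.3% over 37 libraries against 37.5% for *Smad3*. NKG2A+ libraries had a lowest, median and highest level of 82.2, 105 and 122 CPM, and WT uneducated libraries 35.8, 84.7 and 97.0 CPM. The NKG2A+ libraries were mostly higher, and the difference was 0.38 (SE 0.13), just short of the threshold (adjusted p = 0.0601). The lowest uneducated value was library 5. Without that library the difference was 0.29 and passed (adjusted p = 0.0315), and with the low-gene libraries left out of both groups the difference was 0.28 and passed (adjusted p = 0.0463). In WT Ly49C/I+ cells the level ran from 77.8 to 98.3 CPM. KO libraries had 70.2 to 98.5 CPM in uneducated and 70.6 to 102.9 CPM in Ly49C/I+ cells, and the interval of the KO difference was -0.24 to 0.20. Per kilobase, the ratio of *Smad3* to *Smad2* had a median of 0.766 in WT uneducated, 1.10 in NKG2A+ and 1.11 in WT Ly49C/I+ libraries, and of 0.961 and 1.30 in uneducated and Ly49C/I+ KO libraries. Its range overlapped among all groups, from 0.323 to 1.94 in WT uneducated libraries alone.

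*Smad4* encodes the partner that SMAD2 and SMAD3 share. Its lowest, median and highest levels were 63.3, 80.6 and 110.0 CPM in WT uneducated, 73.6, 101 and 132 CPM in NKG2A+, and 49.7, 75.8 and 94.5 CPM in WT Ly49C/I+ libraries. The NKG2A+ libraries were higher than uneducated ones by 0.32 (SE 0.12, adjusted p = 0.0816) and higher than Ly49C/I+ ones by 0.44 (SE 0.14, adjusted p = 0.109), and neither passed. Without the low-gene libraries the first of these was 0.33 and passed (adjusted p = 0.0468). The 5 KO Ly49C/I+ libraries had 119, 129, 96.4, 106 and 82.9 CPM, and the KO uneducated libraries 66.5 to 104 CPM. The KO difference was 0.33 (SE 0.12, adjusted p = 0.0829), while in WT cells it was -0.13 (SE 0.14, adjusted p = 0.626). The test of that difference between genotypes gave 0.44 (SE 0.19, unadjusted p = 0.0295, adjusted p = 0.998 in edgeR), so it did not pass over all genes.

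*Smad7*, the feedback inhibitor, was highest in Ly49C/I+ cells. WT uneducated libraries had 25.7, 55.1 and 69.8 CPM as lowest, median and highest level, NKG2A+ libraries 33.6, 61.7 and 82.0 CPM, and WT Ly49C/I+ libraries 68.3, 79.5 and 135 CPM. Of the 6 Ly49C/I+ libraries, 4 lay above every uneducated library. *Smad7* rose by 0.74 on the log2 scale in WT Ly49C/I+ cells (SE 0.22, adjusted p = 0.0396), while NKG2A+ cells differed from the same uneducated libraries by 0.19 (SE 0.19, adjusted p = 0.560). The call rested on few libraries: *Smad7* passed in 13 of 25 alternatives, and it missed the threshold without any 1 of WT uneducated 1, 2, 3, 4 and 8 and Ly49C/I+ 2, 4, 5 and 7. Without Ly49C/I+ library 5 the difference was 0.56 (adjusted p = 0.116).

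In KO mice *Smad7* showed a difference in the same direction that did not pass. Uneducated libraries ran from 27.4 to 96.9 CPM (median 55.5), and Ly49C/I+ libraries had 96.0, 61.6, 81.8, 71.5 and 69.8 CPM. All 5 Ly49C/I+ libraries exceeded all uneducated libraries except library 4. The difference was 0.47 (SE 0.21, adjusted p = 0.141), and without uneducated library 4 it was 0.63 (adjusted p = 0.0189).

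*Skil*, which encodes the repressor SnoN and is itself induced by TGF-beta, rose in WT Ly49C/I+ cells. Its lowest, median and highest levels were 92.2, 147 and 196 CPM in WT uneducated libraries, 137, 195 and 231 CPM in NKG2A+ libraries and 181, 227 and 249 CPM in WT Ly49C/I+ libraries. Of the 6 Ly49C/I+ libraries, 4 exceeded every uneducated library. The increase was 0.58 on the log2 scale (SE 0.13, adjusted p = 0.0117), and it passed in all 25 alternatives. In NKG2A+ cells the difference was 0.34 (SE 0.12, adjusted p = 0.0639). In KO mice the uneducated libraries had 103.1 to 190 CPM (median 156) and the Ly49C/I+ libraries 217, 186, 153, 163 and 246 CPM, a difference of 0.35 (SE 0.14, adjusted p = 0.110).

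*Smad7* and *Skil* were thus the 2 of 9 genes that passed in WT Ly49C/I+ cells, where 9.3% of all genes tested passed, and 5 of 9 had an unadjusted p under 0.05, against 24.7% of all genes. The NKG2A+ and Ly49C/I+ comparisons share the 9 uneducated libraries. Reads that fell outside annotated genes moved with the same groups: they came to 2.90% to 4.47% in WT uneducated, 3.01% to 4.49% in NKG2A+ and 4.16% to 6.83% in WT Ly49C/I+ libraries, with the highest share in Ly49C/I+ library 5. In KO mice they came to 2.69% to 5.67% in uneducated and 3.94% to 5.26% in Ly49C/I+ libraries. Their part in these results was not tested.

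The repressors *Ski* and *Tgif1* did not pass in any comparison. Like every other member, they ranged more widely among WT uneducated libraries than the means of the 5 groups did. *Ski*, the founding relative of *Skil*, had the largest coefficient of variation of the 9 genes (39.7%), with 16.2, 46.9 and 95.8 CPM as lowest, median and highest level in WT uneducated libraries. Its levels in NKG2A+ libraries were 39.0, 52.5 and 83.2 CPM and in WT Ly49C/I+ libraries 60.8, 71.7 and 100.6 CPM. The Ly49C/I+ difference was 0.71 (SE 0.30, adjusted p = 0.144) in WT and 0.51 (SE 0.29, adjusted p = 0.241) in KO cells, where uneducated libraries ran from 23.1 to 92.6 CPM and Ly49C/I+ libraries had 111, 99.99, 75.7, 70.9 and 52.2 CPM. Without WT uneducated library 6, the highest of its group, the WT difference was 0.93 and passed. *Tgif1*, a homeobox repressor that binds SMAD2, had 115, 188 and 293 CPM in WT uneducated, 167, 241 and 291 CPM in NKG2A+ and 212, 226 and 345 CPM in WT Ly49C/I+ libraries. Its differences from uneducated cells were 0.26 in NKG2A+ (adjusted p = 0.282), 0.34 in WT Ly49C/I+ (adjusted p = 0.259) and 0.26 in KO Ly49C/I+ cells (adjusted p = 0.166).

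**Figure D2:**
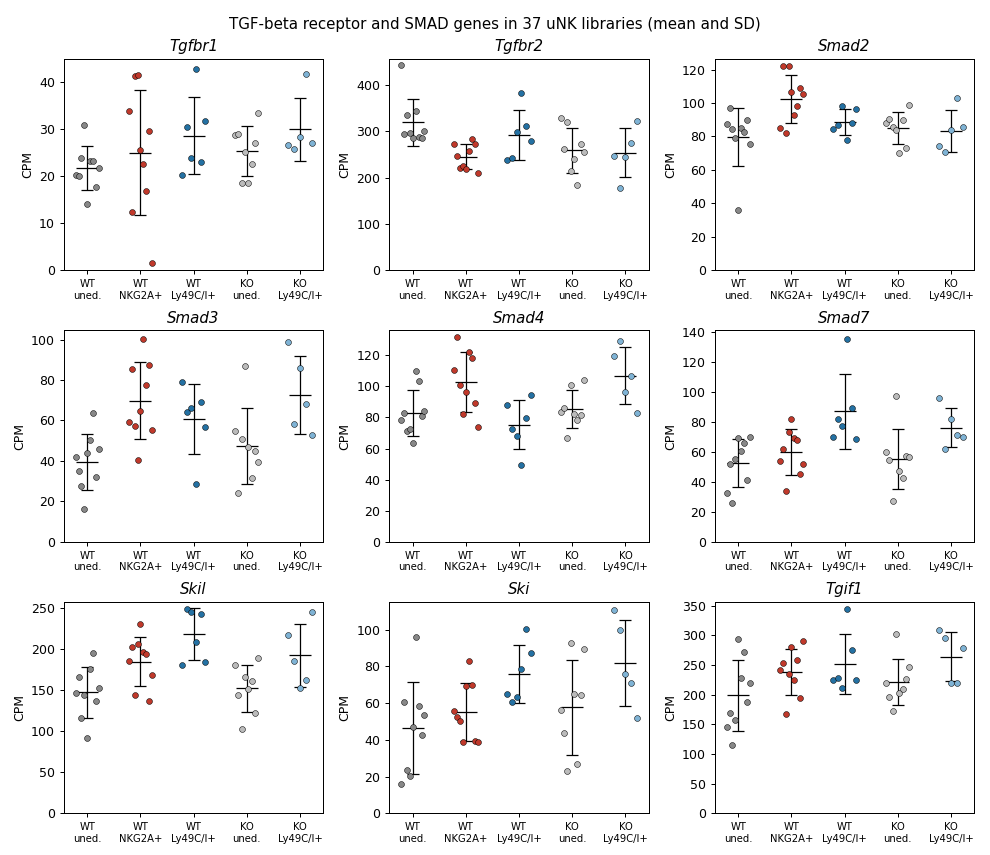
CPM of each gene in 37 libraries, 1 point per library, in 5 groups (WT and NKG2A KO; uned., uneducated), with the mean and SD as bars. For *Tgfbr2* the NKG2A+ points (211 to 284 CPM) lie under the WT uneducated points (285 to 443 CPM), whereas for *Smad3*, *Smad7* and *Skil* the groups overlap in part.

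As a set, the 9 genes had mostly positive differences in educated cells. Their median log2 difference from uneducated cells was 0.26 in NKG2A+ cells (0.01 over all genes tested), 0.41 in WT Ly49C/I+ cells (0.00 over all genes) and 0.33 in KO Ly49C/I+ cells (0.02 over all genes). In KO mice none of the 9 passed in edgeR's quasi-likelihood test, its likelihood ratio test or DESeq2, and 4 had an unadjusted p under 0.05. In that comparison 16.3% of all genes passed and 31.1% had an unadjusted p under 0.05. A direct comparison of NKG2A+ with Ly49C/I+ WT cells gave 0 of 9 by each of these tools, with 5 at an unadjusted p under 0.05, where 2.73% of all genes passed and 18.4% had an unadjusted p under 0.05. Its largest difference was that of *Smad7*, which was lower in NKG2A+ cells by a log2 difference of -0.56 (SE 0.18, adjusted p = 0.106). *Ski* (-0.47, adjusted p = 0.149), *Tgfbr2* (-0.26, adjusted p = 0.168) and *Skil* (-0.25, adjusted p = 0.238) were also lower there and *Smad4* higher, none of them past the threshold.

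**Figure D3:**
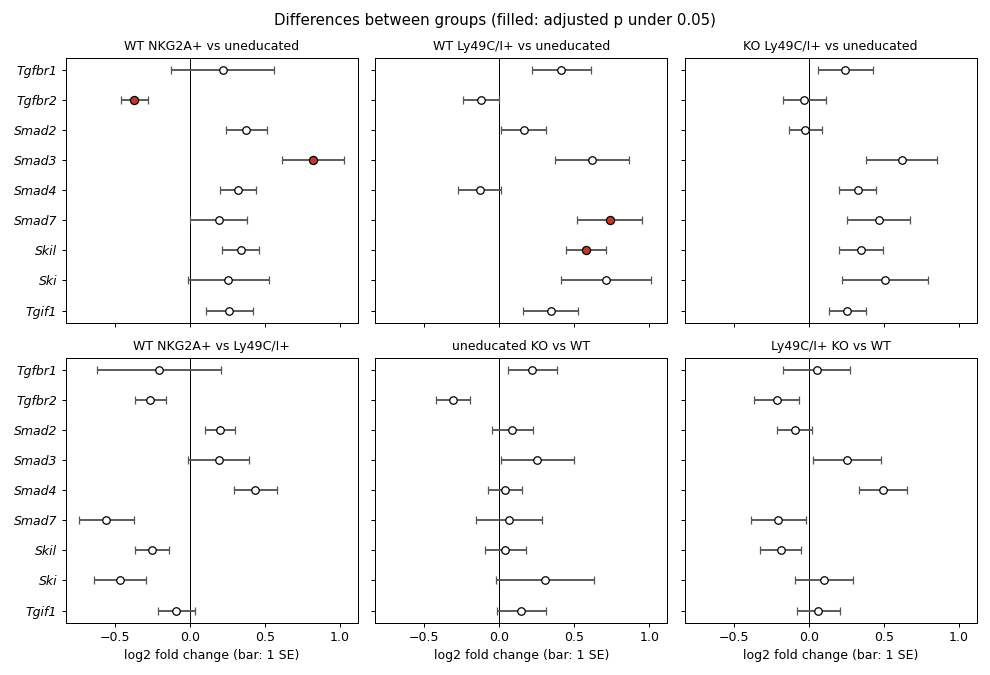
Log2 fold change of each gene with its SE in 6 comparisons, from edgeR. Filled points passed an adjusted p of 0.05: *Tgfbr2* (-0.37) and *Smad3* (0.82) in NKG2A+ cells, and *Smad7* (0.74) and *Skil* (0.58) in WT Ly49C/I+ cells.

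The same sorted population was also compared between genotypes. Between NKG2A KO and WT cells, 0 of 9 genes passed in uneducated or in Ly49C/I+ cells, in edgeR's quasi-likelihood and likelihood ratio tests and in DESeq2, and 1 gene in each had an unadjusted p under 0.05. That gene was *Tgfbr2* in uneducated and *Smad4* in Ly49C/I+ cells (log2 difference 0.50, SE 0.16, unadjusted p = 0.00766, adjusted p = 0.326, higher in KO). Over all genes, 0% passed the quasi-likelihood test in both comparisons, and 6.66% and 10.7% had an unadjusted p under 0.05. With DESeq2, 1 gene passed in uneducated and 118 in Ly49C/I+ cells, and with the likelihood ratio test 1 and 62. The intervals were wide, and for *Ski* in uneducated cells the difference of 0.31 had an approximate 95% interval from -0.33 to 0.94. The test of whether the Ly49C/I+ effect differed by genotype likewise gave 0 of 9 genes, with *Smad4* at an unadjusted p under 0.05 and 4.44% of all genes there.

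Upstream of the receptors, few genes of the list of ligands and activators were expressed. Of 21, 7 passed the filter in the NKG2A+ comparison and 6 in the Ly49C/I+ comparisons. *Tgfb1*, the main ligand, did not pass against uneducated cells but was lower in NKG2A+ than in Ly49C/I+ WT cells (log2 difference -0.59, SE 0.13, adjusted p = 0.0168). Its lowest, median and highest levels were 83.5, 128 and 160 CPM in NKG2A+, 149, 187 and 216 CPM in WT Ly49C/I+ and 100.1, 145 and 178 CPM in WT uneducated libraries. *Itgav*, a chain of the integrins that activate latent TGF-beta, fell in NKG2A+ cells (-0.43, SE 0.13, adjusted p = 0.0239), from 120.4 ± 22.0 CPM (SD, n = 9) to 88.7 ± 17.6 CPM. It was the only gene of this list that passed there, 1 of 7 tested, where 15% of all genes tested passed. No gene of the list passed in WT or KO Ly49C/I+ cells against uneducated cells, where 9.3% and 16.3% of all genes did. Of the integrin chains on the same list, *Itgb6* had no read in any library. *Itgb8* had a mean of 0.27 CPM in NKG2A+ libraries and less in the other groups. The median over the tested genes of the list was -0.17 in NKG2A+ cells.

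Of 14 other receptors and co-receptors, 3 were tested in NKG2A+ cells, and 1 rose and 1 fell, where 15% of all genes tested passed. *Bambi*, a decoy receptor without kinase activity, rose by 0.64 (SE 0.21, adjusted p = 0.0451), from 33.7 ± 14.1 to 52.3 ± 8.35 CPM, and passed in 14 of 29 alternatives. *Acvrl1*, a type I receptor for BMP ligands, was low in every group and lower in NKG2A+ cells (-1.93, SE 0.60, adjusted p = 0.0313). Its level was 10.6 ± 3.78 CPM in WT uneducated and 2.76 ± 2.09 CPM in NKG2A+ libraries, and it passed in 21 of 29 alternatives. It met the filter mainly through the uneducated libraries (lowest 5.01 CPM), while no NKG2A+ library exceeded 5.37 CPM. A gene admitted in this way could hardly be called as a rise, so this call carries little weight. None of the 3 tested passed in WT Ly49C/I+ cells and none of 2 in KO Ly49C/I+ cells, against 9.3% and 16.3% of all genes. Of the other SMADs, *Smad1* and *Smad5*, which act in BMP signalling, passed the filter and did not pass the test in any of the education comparisons. *Smad1* was at 39.8 ± 9.63 CPM in WT uneducated and 38.7 ± 8.39 CPM in NKG2A+ libraries.

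Among 20 genes whose products act on SMADs or receptors, 19 were tested. In NKG2A+ cells 2 rose and 1 fell, where 15% of all genes tested had passed: *Pias1*, a SUMO ligase (0.43, adjusted p = 0.00709), *Ppm1a*, a phosphatase of SMAD2 and SMAD3 (0.40, adjusted p = 0.0160), and *Fkbp1a*, which encodes FKBP12, a protein that binds the type I receptor and holds it inactive (-0.36, adjusted p = 0.0167). *Fkbp1a* also fell in Ly49C/I+ cells of WT (-0.51, SE 0.12, adjusted p = 0.0148) and KO mice (-0.49, SE 0.08, adjusted p = 0.000642), and passed in every alternative of these 3 comparisons. Its levels were 349 ± 62.0 CPM in WT uneducated, 271 ± 25.0 CPM in NKG2A+ and 245 ± 22.7 CPM in WT Ly49C/I+ libraries, and 309 ± 23.7 and 218 ± 14.6 CPM in uneducated and Ly49C/I+ KO libraries. In KO Ly49C/I+ cells *Usp15* (-0.32, adjusted p = 0.0342), a deubiquitinase, and *Strap* (-0.32, adjusted p = 0.0227), a partner of SMAD7, also fell, and *Ldlrad4*, an inhibitor of SMAD phosphorylation that TGF-beta induces, rose (0.46, adjusted p = 0.0326). These 3 calls held in 13, 17 and 12 of 22 alternatives. With *Fkbp1a*, 4 of 19 genes of the list passed in KO and 1 of 19 in WT Ly49C/I+ cells, against 16.3% and 9.3% of all genes tested. Of 13 nuclear partners, 11 were tested in each education comparison. None passed in WT cells, and *E2f4* fell in KO Ly49C/I+ cells (-0.31, adjusted p = 0.0186, past the threshold in 18 of 22 alternatives).

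Of 13 genes known to be induced by TGF-beta, 8 were tested against uneducated cells. In WT Ly49C/I+ cells 3 rose and 0 fell, where 9.3% of all genes tested had passed, and 2 of the 3 were *Smad7* and *Skil*. The other was *Junb*, an AP-1 transcription factor (0.61, SE 0.14, adjusted p = 0.0129), which rose from 2995 ± 640 to 4548 ± 938 CPM. In KO Ly49C/I+ cells 2 rose, *Junb* (0.47, adjusted p = 0.0186) and *Ldlrad4* (in 20 and 12 of 22 alternatives), and 0 fell, against 16.3% of all genes. In NKG2A+ cells, where 15% of all genes passed, 0 rose and 1 fell, the residency integrin *Itga1* (-0.36, SE 0.11, adjusted p = 0.0222), from 217 ± 27.5 to 167 ± 33.5 CPM. *Itgae* was low, with medians from 3.80 to 9.06 CPM in the 5 groups, and *Pmepa1*, another inhibitor that TGF-beta induces, differed by 0.41 in WT Ly49C/I+ cells (SE 0.35, adjusted p = 0.502). The median over the tested genes of this list was 0.40 in WT and 0.36 in KO Ly49C/I+ cells and -0.02 in NKG2A+ cells. *Smad7* and *Skil* are on the list, so its medians in Ly49C/I+ cells in part repeat the differences given above for these members.

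Markers of other cells moved with some of these groups. Of 6 T cell markers, 3 were tested in NKG2A+ cells, where 15% of all genes tested passed. *Cd3d* (1.19, adjusted p = 0.00156) and *Cd3e* (1.84, adjusted p = 0.00177) rose, and *Cd3g* did not (-0.13, adjusted p = 0.773). *Cd3e* passed the filter only in comparisons that include NKG2A+ cells. The summed level ran from 68.8 to 180 CPM (median 110) in NKG2A+ and from 39.6 to 153 CPM (median 98.7) in WT uneducated libraries. Its median was 116 CPM in WT Ly49C/I+ libraries, and 134 and 154 CPM in uneducated and Ly49C/I+ KO libraries. Of the 4 trophoblast or epithelial markers only *Epcam* was tested, and it fell in NKG2A+ (-1.28, adjusted p = 2.47e-05), WT Ly49C/I+ (-1.11, adjusted p = 0.00107) and KO Ly49C/I+ cells (-1.31, adjusted p = 0.00231). The summed level of that list was 47.2 to 121 CPM in WT uneducated, 19.7 to 77.1 CPM in NKG2A+ and 26.4 to 45.0 CPM in WT Ly49C/I+ libraries. A mean of at least 5 CPM was reached by 3 of these markers in NKG2A+ libraries and by 1 in each other group. In NKG2A+ cells the markers thus did not all fall with *Epcam*. Summed stromal markers reached 884 CPM in NKG2A+ library 4, nearly all of it *Prl8a2*. *Prl8a2*, a decidual prolactin-family gene, had means of 191 ± 309 CPM in NKG2A+ and 23.3 ± 29.2 CPM in WT uneducated libraries (SD, n = 9 each), and medians of 7.29 and 10.3 CPM. It differed by 3.05 between NKG2A+ and uneducated cells on the log2 scale and did not pass (adjusted p = 0.0706). Summed macrophage markers ran from 6.47 to 346 CPM over all libraries, and none of the 2 tested passed against uneducated cells. The part of these cells in the results was not tested.

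Across libraries, the inhibitors varied together more than the receptors did. After the mean of each group was removed, Pearson's r of log2(CPM + 1) over 37 libraries was 0.79 for *Smad7* and *Tgif1*, 0.62 for *Smad7* and *Ski*, 0.59 for *Ski* and *Tgif1* and 0.46 for *Smad7* and *Skil*. *Skil* had 0.36 with *Ski* and 0.35 with *Tgif1*, less than its 0.44 with *Smad2* and 0.37 with *Smad4*, which are not inhibitors. *Smad4* went with *Ski* (0.60) and *Smad3* (0.52). The 2 receptors had r = 0.19 with each other, *Smad2* and *Smad3* had -0.09, and *Smad2* and *Tgif1* had the lowest value, -0.35. These are descriptions, given without a p, since values from 1 library share its preparation and depth.

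**Figure D4:**
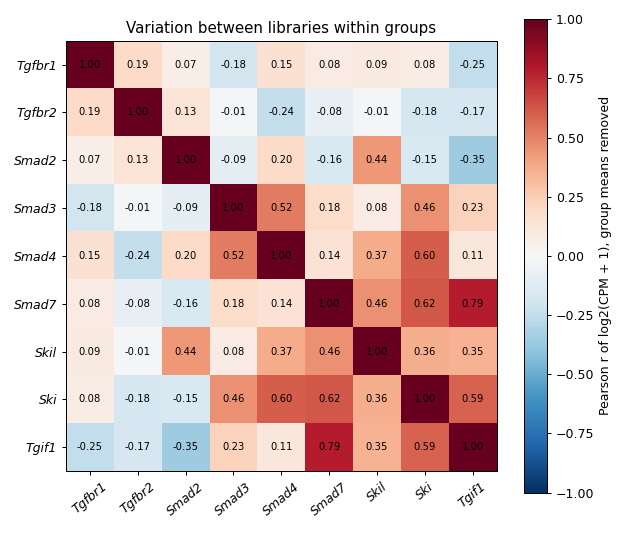
Pearson's r between each pair of the 9 genes over 37 libraries, of log2(CPM + 1) with group means removed, coloured from -1 to 1. The block of *Smad7*, *Skil*, *Ski* and *Tgif1* holds values from 0.35 to 0.79, and *Tgfbr2* has negative or small values with all of them.

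Among 9286 genes, those whose level over 37 libraries was most like each member, by the same measure without removing group means, were as follows. *Smad7* was most like *Mafk* (r = 0.86), a small Maf transcription factor, and *Pmepa1* (0.84). *Tgif1* was most like *Pnrc1* (0.86) and the AP-1 gene *Fosl2* (0.81), *Ski* like *Irf2bp2* (0.90) and *Akna* (0.83), and *Skil* like *Wsb1* (0.80) and the interleukin 4 receptor gene *Il4ra* (0.80). *Tgfbr2* was most like *Pecam1* (0.68) and *Anxa4* (0.67), and *Tgfbr1* like *Retreg1* (0.78) and 9930104L06Rik (0.78). *Smad2* was most like *Aqr* (0.82) and *Kat7* (0.78), *Smad3* like the repressor *Bach2* (0.74) and *Mcam* (0.73), and *Smad4* like *Galnt10* (0.74) and *Prkcq* (0.70). *Smad2*, *Smad4* and *Smad7* lie on chromosome 18, *Tgfbr1* and *Ski* on chromosome 4, *Skil* on chromosome 3 and *Tgif1* on chromosome 17.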

How the data were processed

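RNA from sorted uNK cells was amplified by the authors with a SMART-Seq v4 kit and made into libraries with Nextera XT, without molecular identifiers or strand, so counts are not independent molecules. Per the submitters' processing notes and the study's methods, reads were trimmed with Trim Galore 0.5.0 and mapped with STAR 2.7.1 to GRCm38. The deposited values are whole-number counts per gene for 53700 Ensembl genes in each of 37 libraries, not normalized. For the counting program and its strand setting, the sources used here give nothing. The 5 summary lines that name no gene (18.9% to 23.6% of all lines' reads) were left out.

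A gene was tested where at least a share of 0.5 of the compared libraries reached 5 CPM, with edgeR 4.0.16 in R 4.3.3 (quasi-likelihood test, TMM, Benjamini-Hochberg adjustment over all genes tested, adjusted p under 0.05), each fit holding no groups but those compared. Approximate 95% intervals come from the SE. GENCODE M21 (GRCm38) gave positions, lengths and symbols, the last for 52093 identifiers. Groups and numbers came from the labels; for 4 of the 6 WT Ly49C/I+ libraries title and description disagree on the number, and the description was followed. The description of WT uneducated 5 is the one given for WT uneducated 4, so its title was followed. The study's own table leaves out the libraries numbered 5. The rule for named genes takes the 9 members throughout, up to 4 genes that passed per list and comparison by size of change, and the 2 genes most like each member. Members, lists and tests were chosen with earlier results of these data known. *Itgae*, *Pmepa1*, *Smad1* and the marker genes named without a call were added after their values were seen. No 2 libraries of the same group agreed within sampling noise (mean chi-square per gene of at least 23.7). Libraries of different groups were not compared in this way. The tests were checked on simulated counts. Results were recomputed with DESeq2 1.42.0, the likelihood ratio test of edgeR, other filters, RLE factors, offsets for GC and length (splines with 5 degrees of freedom), a block on replicate number, 1 fit of all 5 groups, the libraries numbered 5 left out and each library left out in turn. Leaving out the 4 libraries with the fewest genes was chosen after seeing the data.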

Additional observations from a re-analysis of the deposited data

Results flagged for a closer look

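In 5 of 45 checks of the 9 genes in 5 groups, 1 library stood apart from the rest of its group by Dixon's criterion, which chance meets in about 1 of 20 groups. *Tgfbr1* was highest in KO Ly49C/I+ library 7, with 41.8 CPM against 28.4 CPM in the next library. *Tgfbr2* was highest in WT uneducated library 1, with 443 CPM against 343 CPM in the next. *Smad2* was lowest in WT uneducated library 5, with 35.8 CPM against 75.5 CPM, and this is a library with few genes counted. *Smad7* was highest in KO uneducated library 4 (96.9 CPM against 59.6 CPM) and in WT Ly49C/I+ library 5 (135 CPM against 89.2 CPM), the latter again with few genes counted. Without WT uneducated 5, *Smad2* passed in NKG2A+ over uneducated cells (0.29 on the log2 scale), and without KO Ly49C/I+ 7, *Tgfbr1* differed by 0.088 in place of 0.24 in KO Ly49C/I+ over uneducated cells, and did not pass either way. The cause was not tested.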

How the results depend on the processing

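Of 2048 values of single genes under alternatives, 1896 kept their direction and side of the threshold, 71 were no longer past it, 27 newly passed it and 54 reversed. No reversed value had passed under either setting, and the largest such difference before reversal was 0.22 on the log2 scale. *Tgfbr2* and *Smad3* in NKG2A+ cells and *Skil* in WT Ly49C/I+ cells passed under every alternative run. The causes of the changes below were not tested.

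Of the 9 members, 4 passed in NKG2A+ against uneducated cells with the likelihood ratio test, with DESeq2 and without the low-gene libraries, and 2 to 4 with 1 library left out (4 without WT uneducated 6 or NKG2A+ 3). In WT Ly49C/I+ cells 1 passed with filterByExpr, with no filter and with GC and length offsets, and 1 to 3 with 1 library left out. In KO Ly49C/I+ cells 1 passed with GC and length offsets, and 0 to 3 with 1 library left out (3 without KO uneducated 4, 1 without KO Ly49C/I+ 8). Over all genes, WT Ly49C/I+ against uneducated cells gave 864 calls, 451 with no filter, 1528 with all 5 groups in 1 fit and 461 to 1234 with 1 library left out (fewest without Ly49C/I+ 7). NKG2A+ against Ly49C/I+ cells gave 254, with 442 by the likelihood ratio test, 558 by DESeq2, 104 with no filter, 140 with the offsets and 147 to 306 with 1 library left out. KO Ly49C/I+ against uneducated cells gave 1519, with 889 with no filter and 967 to 1763 with 1 library left out (fewest without KO Ly49C/I+ 4). KO against WT Ly49C/I+ cells gave 0, with 62 by the likelihood ratio test, 118 by DESeq2, 18 with all groups in 1 fit and 0 to 15 with 1 library left out (15 without WT Ly49C/I+ 1). KO against WT uneducated cells gave 1 by each of these tools, and the test between genotypes gave 1 by DESeq2.

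Libraries that share a number did not meet the criterion for pairing, a correlation over 0.1 for every number. The median correlation of same-numbered deviations was 0.10, 0.13, 0.08 and 0.04 in the 4 pairs of groups (0.0040, -0.022, -0.011 and -0.0058 for unlike numbers). It was over 0.1 for 4 of 9, 4 of 6, 2 of 6 and 1 of 5 numbers, although 6, 5, 6 and 3 of them correlated best with their own number. With the replicate number as a block, KO Ly49C/I+ against uneducated cells gave 759 genes past the threshold, or 587 with the offsets, and NKG2A+ against Ly49C/I+ cells gave 150 with block and offsets. With the block *Smad4* also passed in NKG2A+ cells (0.32, adjusted p = 0.0482) and *Ski* in WT Ly49C/I+ cells (1.03, adjusted p = 0.0294). Reversed under the block were *Tgfbr1* in NKG2A+ against uneducated cells (-0.011, or -0.18 with the offsets) and, in KO Ly49C/I+ against uneducated cells, *Tgfbr2* (0.11, or 0.10 with the offsets) and *Smad2* (0.0099). No block could be fitted between genotypes, which share no mice.

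With GC and length offsets, *Smad7* (-0.091) and *Smad4* (-0.0022) reversed in KO against WT uneducated cells, and *Tgfbr1* (-0.10) and *Tgif1* (-0.023) in KO against WT Ly49C/I+ cells. *Smad3* reversed in the test between genotypes with the offsets (0.072), with all groups in 1 fit (0.0044) and with block and offsets (0.0067). Without the low-gene libraries, *Tgfbr1* reversed in NKG2A+ against Ly49C/I+ cells (0.11) and in the test between genotypes (0.091), and *Smad7* in KO against WT Ly49C/I+ cells (0.038). With 1 library left out, log2 differences that crossed 0 ran as follows. In NKG2A+ against Ly49C/I+ cells, *Tgif1* ran from -0.14 to 0.026. In KO Ly49C/I+ against uneducated cells, *Tgfbr2* ran from -0.14 to 0.073 and *Smad2* from -0.11 to 0.030. In KO against WT uneducated cells, *Smad7* ran from -0.10 to 0.17, *Skil* from -0.025 to 0.11, *Smad2* from -0.0091 to 0.13 and *Smad4* from -0.0073 to 0.10. In KO against WT Ly49C/I+ cells, *Tgfbr1* ran from -0.10 to 0.21, *Ski* from -0.034 to 0.22 and *Tgif1* from -1.2e-05 to 0.18. In the test between genotypes, *Smad3* ran from -0.15 to 0.18, *Tgif1* from -0.18 to 0.022 and *Tgfbr2* from -0.028 to 0.18.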
